A study of Mus musculus with 12 samples.

Results

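The genes described here are 10 enzymes of fatty acid synthesis, elongation and desaturation, namely Acaca, Acacb, Fasn, Scd1, Scd2, Scd3, Elovl3, Elovl5, Elovl6 and Fa2h. They were chosen by name from the pathway, with earlier results of these data known, and matched by gene symbol. All 10 were found among the 47643 gene IDs of the deposited tables. They were followed through poly(A) RNA sequencing of C57BL/6 mouse skin at 10 weeks of age. The 4 groups, of 3 libraries each, were whole skin of ADAM17 conditional knockout mice (Skin KO), whole skin of wild type mice (Skin WT), epidermis of ADAM17 conditional knockout mice (Epidermis KO) and epidermis of wild type mice (Epidermis WT). The knockout carried Adam17fl/fl alleles together with Sox9-Cre. Adam17 encodes a membrane protease that sheds EGFR ligands and other surface proteins, and Sox9 is active in the hair follicle lineage, so cells outside that lineage may keep an intact gene. The labels do not give the Cre or floxed status of the wild type mice and do not state whether each library is a mouse of its own, so p-values cover no more than the spread seen among these libraries, part of which may be technical.

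In fatty acid synthesis the acetyl-CoA carboxylases make malonyl-CoA, from which fatty acid synthase builds palmitate. Elongases of the ELOVL family lengthen the chain in the endoplasmic reticulum, stearoyl-CoA desaturases place a double bond in it, and fatty acid hydroxylase adds a hydroxyl group that is kept in many skin ceramides. In skin these products serve the sebum of sebaceous glands, the lipid barrier of the outer epidermis and the fat of dermal adipocytes.

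Libraries held between 12208522 and 16743144 expected counts. Levels are given as TMM-scaled CPM (CPM being counts scaled to library size, corrected for composition) when a gene is compared between libraries, and as the deposited TPM, which is per length, when genes are compared with each other. Fold changes are log2 ratios with their standard error (SE). Each adjusted p comes from edgeR (quasi-likelihood test), adjusted by Benjamini and Hochberg's method across every gene tested, and a gene is called below 0.05. Adam17 (ENSMUSG00000052593.15) had 41.7, 52.2 and 52.6 CPM in Skin KO and 72.4, 96.4 and 94.2 CPM in Skin WT, and 48.4, 58.1 and 47.4 CPM in Epidermis KO against 79.0, 86.5 and 79.5 CPM in Epidermis WT. Its log2 fold change was -0.75 (SE 0.16, adjusted p = 0.00797) in skin and -0.66 (SE 0.12, adjusted p = 0.00213) in epidermis, and its counts cover the whole gene, not the floxed part alone. Keratinocyte markers, led by Krt10, Krt1 and Krt5, summed to 72826 to 103299 CPM in Epidermis KO, 59495 to 69268 in Epidermis WT, 52239.5 to 61909 in Skin KO and 30024 to 35685 in Skin WT. Reads of Uty, Kdm5d, Eif2s3y and Ddx3y, all of them Y-linked, were present in 5 of the 6 KO libraries, all but Skin KO 2, and absent from the 6 WT libraries. The WT libraries had 660 to 3222 Xist reads, a female pattern. Both kinds of reads occurred in Skin KO 3 (319 Xist, 1034 Y-linked), Epidermis KO 2 (2511, 213) and Epidermis KO 3 (2050, 679). Whether these libraries hold RNA of more than 1 mouse was not tested. Sex thus went largely with genotype, and their effects cannot be told apart in the comparisons of KO with WT.

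Skin WT 1 stood apart from the other Skin WT libraries. Its skeletal muscle markers, led by Acta1, Myh4 and Atp2a1, summed to 79021 CPM, against 10644 and 26217 CPM in Skin WT 2 and Skin WT 3. Of the 10 genes below, 8 (all but Acacb and Scd3) had their lowest Skin WT value in this library, so each skin result is given with and without it where the call or direction depends on it.

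Scd1, Scd2 and Scd3 are neighbours on chromosome 19 and share stretches of coding sequence, which bears on how their reads are divided. The stretch shown here, of 225 bases, lies inside the annotated coding sequence of each gene in GENCODE mouse release M21 (GRCm38) and is given in the sense direction, with capitals for the bases of Scd2 or Scd3 that differ from Scd1.
Scd1: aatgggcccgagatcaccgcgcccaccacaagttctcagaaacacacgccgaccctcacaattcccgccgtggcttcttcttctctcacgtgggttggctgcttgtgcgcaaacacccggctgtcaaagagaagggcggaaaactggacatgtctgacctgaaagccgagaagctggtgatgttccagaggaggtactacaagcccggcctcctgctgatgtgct
Scd2: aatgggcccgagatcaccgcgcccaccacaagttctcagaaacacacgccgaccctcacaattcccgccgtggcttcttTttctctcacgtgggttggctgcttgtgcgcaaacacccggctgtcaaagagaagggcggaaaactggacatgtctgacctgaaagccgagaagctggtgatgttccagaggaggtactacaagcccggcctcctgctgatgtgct
Scd3: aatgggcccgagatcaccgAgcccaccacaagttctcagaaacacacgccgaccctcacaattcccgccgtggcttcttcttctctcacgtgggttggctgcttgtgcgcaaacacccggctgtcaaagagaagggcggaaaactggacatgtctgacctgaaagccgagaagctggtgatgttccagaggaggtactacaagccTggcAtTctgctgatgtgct
Scd2 differed from Scd1 at 1 base and Scd3 at 4 bases of this stretch. Over the whole transcripts, 4.86% of the 50-base words of Scd3 also occur in Scd1 and 3.95% also occur in Scd2. RSEM divides a read that fits several genes by probability, and the expected counts of these 3 genes were not whole numbers in all 12 libraries. Scd3 had the lowest mean TPM of the 3 in every group, although Scd2 was lower in Skin WT 1 (10.7 TPM, against 14.8 TPM for Scd3) and in Epidermis WT 3 (9.25 TPM, against 11.1 TPM for Scd3). The values of these genes are uncertain to the extent of that division, those of Scd3 and Scd2 the more so for their lower levels. No 50-base word was shared between Elovl3, Elovl5 and Elovl6, or between Acaca and Acacb.

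The promoters of Fasn and Elovl5, from RefSeq (GRCm38.p6), are shown because both genes rose in epidermis and because they hold the most CCAAT boxes, the motif bound by NF-Y, of the 6 members with a RefSeq promoter (Fasn, Acaca, Acacb, Scd3, Elovl5 and Elovl6). Each runs from 250 bases before to 50 bases after the transcript start, 5′ to 3′ on the gene's strand, with CCAAT or its reverse complement ATTGG in capitals.
Fasn, chr11:120824498-120824797, minus strand: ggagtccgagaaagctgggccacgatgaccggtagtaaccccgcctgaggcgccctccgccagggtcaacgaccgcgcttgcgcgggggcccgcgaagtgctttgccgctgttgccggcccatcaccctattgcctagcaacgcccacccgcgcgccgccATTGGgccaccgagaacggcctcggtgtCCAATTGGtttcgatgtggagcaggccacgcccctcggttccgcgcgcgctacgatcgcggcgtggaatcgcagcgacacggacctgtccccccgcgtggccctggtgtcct
Elovl5, chr9:77917115-77917414, plus strand: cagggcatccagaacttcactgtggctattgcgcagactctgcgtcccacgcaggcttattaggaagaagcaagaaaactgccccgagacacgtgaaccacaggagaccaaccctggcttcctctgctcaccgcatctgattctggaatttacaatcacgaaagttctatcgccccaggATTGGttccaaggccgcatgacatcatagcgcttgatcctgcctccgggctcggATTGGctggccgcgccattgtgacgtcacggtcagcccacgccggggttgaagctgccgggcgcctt
Fasn held 3 such matches, of which a pair overlap, Elovl5 held 2 and Acacb held 1, while 37.4% of 32851 promoters of this length hold at least 1 on either strand. Acaca, Scd3 and Elovl6 held 0. Of these, Acaca (log2 fold change 1.11) and Elovl6 (0.70) were also higher in Epidermis KO, and Scd3 was not called. A link of the motif with the rises was not tested. Elovl5 also held 1 E-box (CACGTG), found in 7.15% of promoters. Neither TCACNCCAC, a form of the sterol regulatory element (1.24% of promoters), nor the Sp1 box GGGCGG (35.7%) occurred in any of the 6 windows on either strand. These are matches of letters only, and the windows of Acaca and Acacb lie at RefSeq starts inside the annotated genes.

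In whole skin 5 of the 10 genes were higher in KO, namely Elovl3, Fa2h, Elovl5, Scd2 and Elovl6, and Scd3 was lower. For comparison, 22.2% of the 14906 genes tested were called higher and 23.3% lower. The 10 were chosen with earlier results of these data known, so such shares are a reference and not a test. Acaca, Acacb, Fasn and Scd1 did not pass the test. In epidermis 9 of the 10 were higher in KO, all but Scd3, where 26.2% of the 13632 genes tested were called higher and 25.3% lower. None of the 10 was called lower in epidermis by edgeR, none at an unadjusted p under 0.05 and none by DESeq2. All 10 passed the filter on low counts in both preparations. Their median log2 fold change was 0.56 in skin and 1.41 in epidermis, beside -0.0014 and 0.0030 over all genes tested. With the minimum change set at 1.5-fold, 4 of the skin rises, all but that of Elovl6, and 8 of the epidermis rises, all but that of Elovl6, remained.

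**Figure D1:**
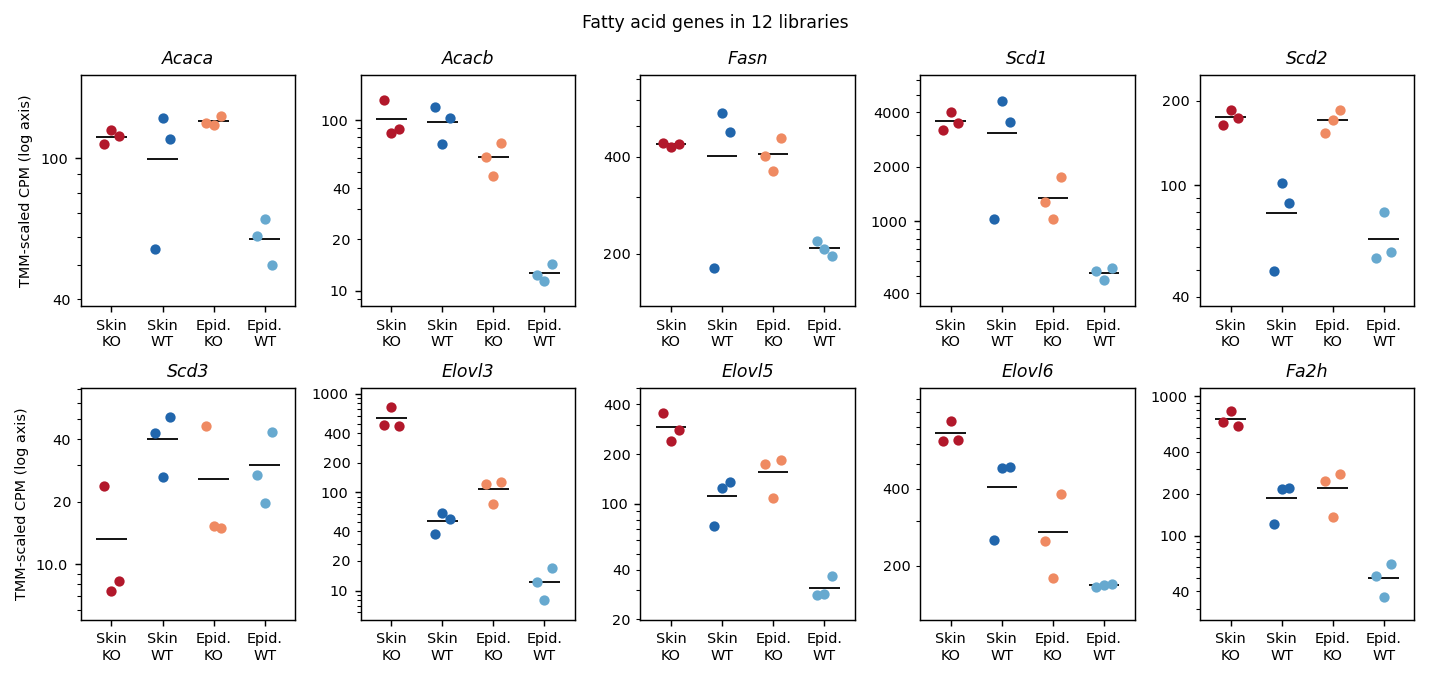
Levels of the 10 genes in TMM-scaled CPM (vertical log axis) in Skin KO, Skin WT, Epidermis KO and Epidermis WT. Points are libraries, 1 to 3 from left to right, and lines are group means. Elovl3 and Fa2h have their highest values in Skin KO, and Skin WT 1 is the low point of Skin WT for Fasn, Acaca and Scd1.

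The initial step of the pathway is run by Acaca (ENSMUSG00000020532.18, chr11:84129672-84401651, plus strand), the cytosolic acetyl-CoA carboxylase that supplies synthesis. Acaca had 109.9, 119.9 and 115 CPM in Skin KO and 55.4, 129.9 and 114 CPM in Skin WT, so the groups overlapped. Its log2 fold change in skin was 0.30 (SE 0.28, adjusted p = 0.418). In Epidermis KO it had 126, 124 and 131 CPM, against 60.2, 67.5 and 50.05 CPM in Epidermis WT. Every Epidermis KO library lay above every Epidermis WT library, with a log2 ratio of 1.11 (SE 0.13, adjusted p = 0.000260).

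Acacb (ENSMUSG00000042010.16, chr5:114146535-114250761, plus strand) encodes the carboxylase of the outer mitochondrial membrane, whose malonyl-CoA inhibits the entry of fatty acids into mitochondria. It had 131, 83.6 and 89.1 CPM in Skin KO and 119, 72.4 and 103 CPM in Skin WT, which overlapped, with a log2 ratio of 0.13 (SE 0.24, adjusted p = 0.68). In Epidermis KO it had 60.8, 47.4 and 73.5 CPM, against 12.5, 11.5 and 14.4 CPM in Epidermis WT. The epidermis groups were well apart, at 4.79-fold (log2 fold change 2.26, SE 0.18, adjusted p = 3.91e-05). The sign of its small skin difference turned without Skin WT 2 (-0.043) or Skin KO 1 (-0.082) and with the share of Y-linked reads as a covariate (-0.21).

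Fasn (ENSMUSG00000025153.9, chr11:120805846-120824547, minus strand) encodes fatty acid synthase. It had 443, 430.5 and 439 CPM in Skin KO and 181, 546 and 477 CPM in Skin WT, so the KO libraries lay close together inside the range of the WT libraries. The skin log2 fold change was 0.22 (SE 0.36, adjusted p = 0.65), and -0.14 (adjusted p = 0.295) without Skin WT 1. In epidermis it had 402, 361 and 459 CPM in KO and 219, 206 and 197 CPM in WT, a 1.98-fold difference with no overlap (log2 fold change 0.99, SE 0.13, adjusted p = 0.000441). The deposited effective length of Fasn, an average over its 6 listed transcripts weighted by their estimated share, was 3482, 4358 and 4637 bases in Epidermis KO and 2701, 2837 and 2474 bases in Epidermis WT. Counts and lengths were thus both higher in Epidermis KO, and the part of the lengths in the counts bears on the size of the rise. In TPM the gene stood at 91.1, 82.8 and 108 in Epidermis KO and 77.6, 74.5 and 67.6 in Epidermis WT. With effective lengths as offsets the log2 fold change was 0.38 (adjusted p = 0.0559) and the call was lost.

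Among the desaturases, Scd1 (ENSMUSG00000037071.2, chr19:44394455-44407879, minus strand) is the main isoform of mouse skin and liver, and mice without it have shrunken sebaceous glands. It had 3194, 4004 and 3467 CPM in Skin KO and 1023, 4612 and 3522 CPM in Skin WT, and the groups overlapped. The skin log2 fold change was 0.32 (SE 0.49, adjusted p = 0.623), and -0.11 (adjusted p = 0.674) without Skin WT 1. In epidermis the gene had 1272, 1022 and 1755 CPM in KO and 528, 474 and 553 CPM in WT. Here every KO library was above every WT library, at 2.63-fold (log2 fold change 1.40, SE 0.20, adjusted p = 0.000696).

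Scd2 (ENSMUSG00000025203.5, chr19:44293674-44306864, plus strand) encodes a desaturase best known from brain and from the skin of newborn mice. It had 164, 186 and 174 CPM in Skin KO and 49.4, 102 and 86.6 CPM in Skin WT, and 154, 171 and 185 CPM in Epidermis KO against 55.1, 80.4 and 57.7 CPM in Epidermis WT. The KO libraries of the 2 preparations covered nearly the same range, and neither pair of groups overlapped. Scd2 was 2.35-fold higher in Skin KO (log2 fold change 1.23, SE 0.25, adjusted p = 0.00729) and 2.67-fold higher in Epidermis KO (log2 fold change 1.42, SE 0.17, adjusted p = 0.000252).

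Scd3 (ENSMUSG00000025202.7, chr19:44203269-44244016, plus strand), an isoform known from sebaceous and Harderian glands, was the gene that went down. It had 23.9, 7.43 and 8.32 CPM in Skin KO and 42.7, 26.2 and 51.3 CPM in Skin WT, a log2 ratio of -1.51 (SE 0.48, adjusted p = 0.0384). The groups did not overlap, but Skin KO 1 came near Skin WT 2, and the call was lost without Skin WT 1 (adjusted p = 0.0684), Skin WT 3 (0.115), Skin KO 2 (0.106) or Skin KO 3 (0.115). In epidermis it had 46.5, 15.3 and 14.9 CPM in KO and 27.0, 19.6 and 43.2 CPM in WT, with a log2 ratio of -0.21 (SE 0.45, adjusted p = 0.712). Epidermis KO 1, the highest of the 6, set this value, and without it the log2 fold change was -0.97 (adjusted p = 0.037). Skin KO 1 and Epidermis KO 1 were also the KO libraries in which Xist had 0 reads and Y-linked reads were most numerous (1728 and 1781). With the share of Y-linked reads as a covariate the log2 fold change was -2.54 (adjusted p = 0.0127) in skin and -1.43 (adjusted p = 0.0375) in epidermis. Scd4, the remaining mouse isoform, had at most 0.319 CPM in any library and was not tested.

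**Figure D2:**
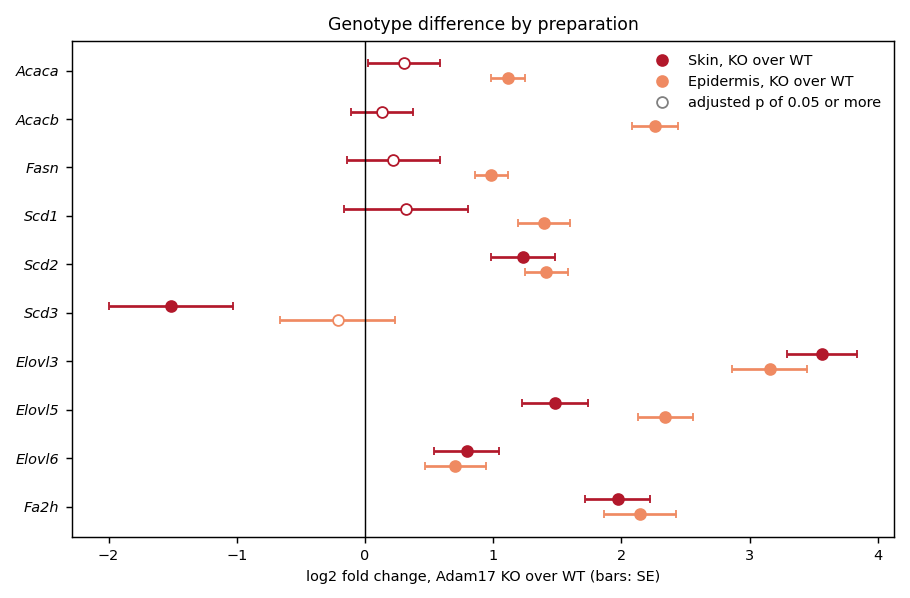
Log2 fold change of KO over WT for each gene in skin (dark) and epidermis (light), with bars for the SE. Open points have an adjusted p of 0.05 or more. In skin Acaca, Acacb, Fasn and Scd1 sit near 0 while in epidermis they lie between 0.99 and 2.26, and Elovl3 has the highest value in both.

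The elongases rose in both preparations. Elovl3 (ENSMUSG00000038754.4, chr19:46131897-46135694, plus strand) lengthens saturated and monounsaturated chains and is known from sebaceous glands and brown fat, and mice without it have sparse hair and altered sebum. It had 479, 735 and 472 CPM in Skin KO and 37.5, 61.6 and 52.9 CPM in Skin WT. In epidermis it had 122, 75.3 and 127 CPM in KO and 12.2, 7.93 and 16.9 CPM in WT. The lowest KO library was several times the highest WT library in each preparation. The difference was 11.8-fold in skin (log2 fold change 3.57, SE 0.27, adjusted p = 0.000222) and 8.92-fold in epidermis (log2 fold change 3.16, SE 0.29, adjusted p = 8.01e-05), and the call held in all 15 skin and all 14 epidermis alternatives.

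Elovl5 (ENSMUSG00000032349.13, chr9:77917364-77984519, plus strand) elongates polyunsaturated chains. It had 355, 239 and 279 CPM in Skin KO against 73.1, 125 and 136 CPM in Skin WT, and 175, 109 and 185 CPM in Epidermis KO against 28.2, 28.5 and 36.6 CPM in Epidermis WT. Neither preparation showed overlap. Its log2 fold change was 1.48 (SE 0.26, adjusted p = 0.00406) in skin and 2.34 (SE 0.21, adjusted p = 7.33e-05) in epidermis.

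Elovl6 (ENSMUSG00000041220.10, chr3:129532355-129638495, plus strand) turns palmitate into stearate, just after the step of fatty acid synthase. It had 619, 739 and 624 CPM in Skin KO against 253, 481 and 488 CPM in Skin WT, and 250.02, 179.9 and 384 CPM in Epidermis KO against 166, 168 and 171 CPM in Epidermis WT. The Epidermis KO libraries spread widely while the Epidermis WT libraries were nearly equal. The rises were 1.73-fold in skin (log2 fold change 0.79, SE 0.26, adjusted p = 0.0401) and 1.63-fold in epidermis (log2 fold change 0.70, SE 0.24, adjusted p = 0.0348). Both stood close to the threshold, and the call was lost in 8 of 15 skin and 8 of 14 epidermis alternatives.

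Fa2h (ENSMUSG00000033579.16, chr8:111345135-111393824, minus strand) encodes the fatty acid hydroxylase that supplies hydroxylated ceramides, and in mouse skin it is known from sebaceous glands, whose sebum is altered without it. It had 654, 788 and 613 CPM in Skin KO and 122, 217 and 221 CPM in Skin WT. In Epidermis KO it had 247, 137 and 278 CPM, against 51.8, 36.6 and 62.4 CPM in Epidermis WT. KO libraries lay above WT libraries throughout, at 3.92-fold in skin (log2 fold change 1.97, SE 0.25, adjusted p = 0.00125) and 4.43-fold in epidermis (log2 fold change 2.15, SE 0.28, adjusted p = 0.000435). The calls of Fa2h, like those of Elovl3, held in every alternative run, including the fit with Skin KO 2 as the only KO library.

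Whether the genotype effect differed between the preparations was tested in 1 fit of the 12 libraries. It was larger in epidermis than in skin for Acacb, by 2.20 on the log2 scale (SE 0.33, adjusted p = 0.00229), and the other 9 genes did not pass, beside 10.1% of 15394 genes called higher and 6.36% called lower. None of the 10 was called lower by edgeR, none at an unadjusted p under 0.05 and none by DESeq2. The Acacb call held in all 19 alternatives. For Fasn the difference was 0.85 (SE 0.42, adjusted p = 0.18), for Acaca 0.89 (SE 0.34, adjusted p = 0.0916), for Scd1 1.16 (SE 0.57, adjusted p = 0.18) and for Elovl5 0.94 (SE 0.37, adjusted p = 0.0962). These 4 depended on Skin WT 1. Without it they were 1.1996 (adjusted p = 0.00194) for Fasn, 1.183 (0.00206) for Acaca, 1.58 (0.00677) for Scd1 and 1.17 (0.0219) for Elovl5, so that 5 of the 10 passed, and the calls over all genes numbered 3940 in place of 2539. Elovl3 (-0.33, SE 0.42), Fa2h (0.26, SE 0.41), Scd2 (0.27, SE 0.32) and Elovl6 (-0.0062, SE 0.39) had estimates smaller than their SE, which does not show that their effects were equal. Scd3 had a large but uncertain estimate of 1.38 (SE 0.76, adjusted p = 0.227).

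Between the WT groups 6 of the 10 genes were lower in epidermis and none higher, where 25.3% of 14596 genes were called lower and 17.5% higher. The log2 fold changes of Epidermis WT over Skin WT were -2.97 for Acacb (adjusted p = 9.43e-05), -2.57 for Scd1 (0.00437), -2.06 for Elovl3 (0.00141), -1.91 for Fa2h (0.00153), -1.86 for Elovl5 (0.000874) and -1.29 for Elovl6 (0.00426). Without Skin WT 1, Fasn (-1.30), Acaca (-1.03) and Scd2 (-0.54) passed as well, which made 9. The calls over all genes, higher and lower together, then numbered 7830 in place of 6258. Between the KO groups 6 genes, again those 6, were lower in epidermis and none was higher, where 15.9% of 14117 genes were called lower and 14.1% higher. The log2 fold changes of Epidermis KO over Skin KO were -0.75 for Acacb (adjusted p = 0.0377), -1.40 for Scd1 (0.00505), -2.38 for Elovl3 (0.00214), -1.64 for Fa2h (0.00497), -0.90 for Elovl5 (0.023) and -1.29 for Elovl6 (0.0108). The call of Acacb was lost without Skin KO 1 (adjusted p = 0.0812), Skin KO 3 (0.0690), Epidermis KO 1 (0.0992) or Epidermis KO 2 (0.103), and that of Elovl5 without Skin KO 1 (0.0605) or Skin KO 3 (0.0641). None of the 10 was higher in either comparison at an unadjusted p under 0.05 or by DESeq2. By DESeq2, 8 of the 10 were lower between the WT groups and 6 between the KO groups. Its calls over all genes, higher and lower together, numbered 6630 and 4359, beside 6258 and 4227 by edgeR. The tissue and genotype comparisons share libraries, so their values are not independent of each other.

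On the per-length scale Scd1 was the most abundant of the 10 genes in every group, at 1019 ± 110 TPM in Skin KO, 968 ± 639 TPM in Skin WT, 283 ± 113 TPM in Epidermis KO and 104 ± 3.89 TPM in Epidermis WT (mean ± SD, n = 3 libraries each). In Skin KO Elovl3 came next at 575 ± 144 TPM, then Fa2h at 407 ± 48.0 TPM, and the ranges of these 3 genes over the libraries did not overlap. Fasn, Elovl6 and Elovl5 followed at 150.3 to 175 TPM, with overlapping ranges. In Skin WT the order after Scd1 was Fasn at 168 ± 83.9 TPM, Fa2h at 123 ± 48.1 TPM, Elovl6 at 103 ± 45.7 TPM, Elovl5 at 61.8 ± 26.3 TPM and Elovl3 at 55.2 ± 19.96 TPM, each overlapping its neighbour. Elovl3 thus stood second in Skin KO and sixth in Skin WT. In Epidermis KO, Fa2h (94.6 ± 38.6 TPM), Fasn (94.0 ± 12.9 TPM), Elovl3 (79.4 ± 25.1 TPM), Elovl5 (58.1 ± 19.0 TPM) and Elovl6 (46.8 ± 23.8 TPM) formed an overlapping run below Scd1. In Epidermis WT, Fasn (73.2 ± 5.14 TPM) was clear of Scd1 above and of Elovl6 (27.6 ± 2.40 TPM) below. Acaca, Acacb and Scd3 filled the last 3 places in each group. In Epidermis WT Scd3, at 8.35 ± 2.54 TPM, stood above Acaca (6.61 ± 1.84 TPM), with overlapping ranges, and Acacb was lowest (1.93 ± 0.284 TPM).

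The mix of elongases also stood apart between the genotypes, which is given as values with no test. Elovl3 made up 59.9% to 71.9% of the summed TPM of Elovl3, Elovl5 and Elovl6 in Skin KO and 22.7% to 28.3% in Skin WT. In Epidermis KO its share was 41.1% to 45.6%, against 13.1% to 22.6% in Epidermis WT. Elovl6 moved the other way, at 16.4% to 18.8% in Skin KO against 43.8% to 47.9% in Skin WT and 21.4% to 28.6% in Epidermis KO against 52.6% to 63.2% in Epidermis WT. Neither share overlapped between the genotypes of a preparation, and since the shares sum to a whole, a lower share of Elovl6 stands beside a higher level of the gene itself. The Elovl5 share did not overlap either, but its direction differed between the preparations. In skin it was 11.7% to 22.4% in KO and 26.8% to 29.4% in WT. In epidermis it was 30.4% to 33.1% in KO and 22.1% to 24.8% in WT. The shares of Scd1 overlapped between the genotypes. It held 94.7% to 95.8% of the summed TPM of Scd1, Scd2 and Scd3 in Skin KO and 90.8% to 97.3% in Skin WT, and 85.5% to 90.5% in Epidermis KO against 82.8% to 85.9% in Epidermis WT. The Scd2 share did not overlap in skin (3.92% to 4.29% in KO, 1.90% to 3.87% in WT) but did in epidermis. The Scd3 share overlapped in skin but not in epidermis (1.09% to 4.47% in KO, 4.84% to 9.19% in WT).

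**Figure D3:**
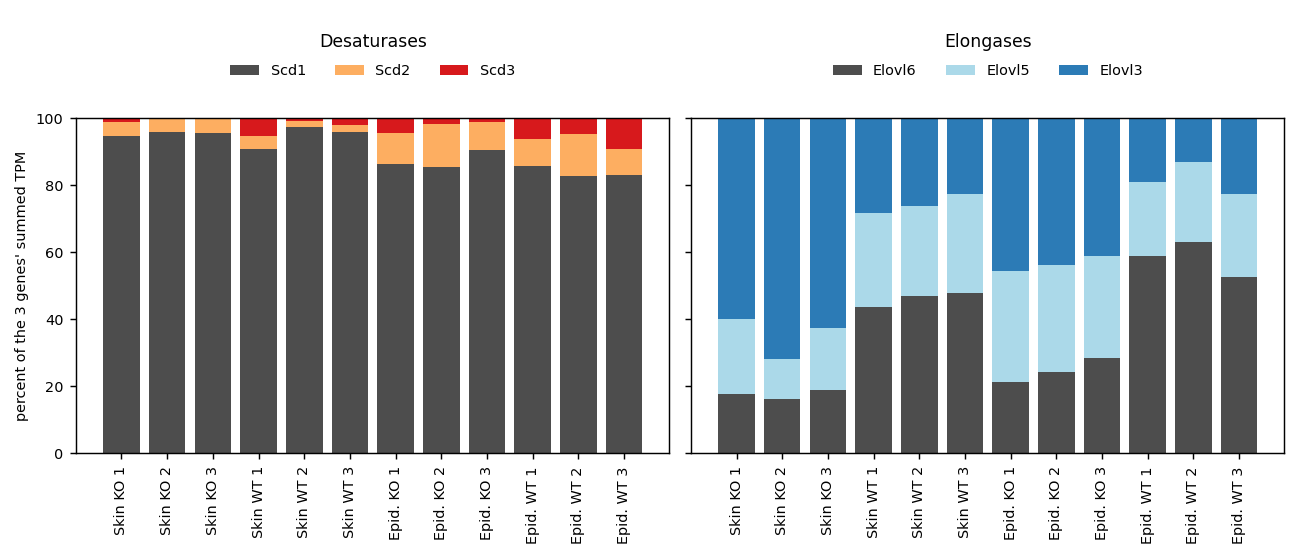
Share of each gene in the summed TPM of its family (percent), in every library, for Scd1, Scd2 and Scd3 (left) and Elovl6, Elovl5 and Elovl3 (right). Elovl3 takes 59.9% to 71.9% in Skin KO against 22.7% to 28.3% in Skin WT, while Scd1 takes at least 82.8% in every library.

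Likeness of pattern was measured as the root mean square difference of log2 CPM over the 12 libraries, each gene centred on its own mean, among 14082 genes. Fasn and Acaca were close to each other, at 0.17, and Acaca was the nearest gene of all to Fasn, followed by Atl3 and Nek1. Nearest to Acaca were Hipk1, Pdpk1 and Lcorl. Fa2h was nearest to Far2 (0.13), Panx3 and Mgll. Tsku (0.33) and Mgll (0.34) were among the 3 genes nearest to Elovl5. Elovl3 was nearest to Awat1 (0.40), Ces4a and Acot5. Among members, Fa2h was the fourth nearest gene to Elovl5, at 0.36. The nearest genes were Ttll7, Fyn and Ctsz for Acacb (from 0.32), Tmem164, Dact2 and Map1b for Scd1 (from 0.39), Senp5, Fgd6 and Ints2 for Scd2 (from 0.15), and Fam126a, Secisbp2l and Reep6 for Elovl6 (from 0.23). Scd3 had no close neighbour, with Cryzl2 nearest at 0.50, then Rab3a and Maob, and its distance from each other member was at least 1.19. The points share libraries and group differences, so these are descriptions only.

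Markers of lipid-rich cell types moved with genotype too. Beside the list counts, 22.2% of all genes tested were called higher and 23.3% lower in skin, and 26.2% and 25.3% in epidermis. Sebocyte markers, led by Krt79, Far2 and Acsbg1, had 8 of 12 tested genes higher and 1 lower in Skin KO, and summed to 3295 to 4520 CPM there against 1643 to 1792 CPM in Skin WT. The 1 lower in skin was Acsbg1 (log2 fold change -0.94, adjusted p = 0.00487), at 93.6 to 130 CPM in Skin KO and 187 to 250 CPM in Skin WT. In epidermis 6 of 11 were higher and 2 lower, and the sum was 2663 to 3568 CPM in KO and 1392 to 1840.0 CPM in WT. Krt79 alone had 1659 to 2476 CPM in Skin KO against 674 to 888 CPM in Skin WT, and 2118 to 2805 CPM in Epidermis KO against 941 to 1260.4 CPM in Epidermis WT. Krt79 thus made up most of the epidermis sums, and the sums without it were not compared. In epidermis Far2 had 89.8 to 168 CPM in KO and 28.8 to 46.7 CPM in WT. Acsbg1 went the other way there, at 116 to 141 CPM in KO and 268 to 325 CPM in WT. So did Awat2, named after its values were seen, at 2.07 to 2.83 CPM in KO and 3.73 to 7.43 CPM in WT. In skin Awat2 was not called (log2 fold change -0.30, adjusted p = 0.242). Unlike Far2 (86.2 to 150 CPM in Skin WT), Krt79 was higher in Epidermis WT than in Skin WT. Awat1 and Far2, the nearest patterns to Elovl3 and Fa2h, belong to this list. Adipocyte markers, led by Cfd, Fabp4 and Lpl, had 11 of 12 genes lower and none higher in Skin KO, with sums of 570 to 879 CPM against 3329 to 4134 CPM in Skin WT. In epidermis 3 of the 6 tested were higher and none lower, with sums of 107 to 144 CPM in KO and 59.1 to 82.7 CPM in WT, and Adipoq, a defining marker, had at most 0.399 CPM in any epidermis library. Most of the difference between these epidermis sums was Lpl, at 39.3 to 78.8 CPM in KO and 5.17 to 11.7 CPM in WT. Pnpla2 stayed level there, at 40.0 to 44.9 CPM in KO and 39.8 to 51.5 CPM in WT. None of the 12 was higher in skin, and none of the 6 lower in epidermis, at an unadjusted p under 0.05 or by DESeq2. Fibroblast markers, led by Col3a1, Dcn and Col1a2, were lower in Skin KO for 4 of 7 genes (736 to 1683 CPM, against 2077 to 2818 CPM in Skin WT) and higher in Epidermis KO for 6 of 6 (61.6 to 119 CPM, against 5.96 to 10.6 CPM in Epidermis WT). No marker of these lists was at 0 in all 3 libraries of a group. In bulk tissue more cells of a type and more RNA per cell cannot be told apart, and the part of these cell types in the levels of the 10 genes was not tested.

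**Figure D4:**
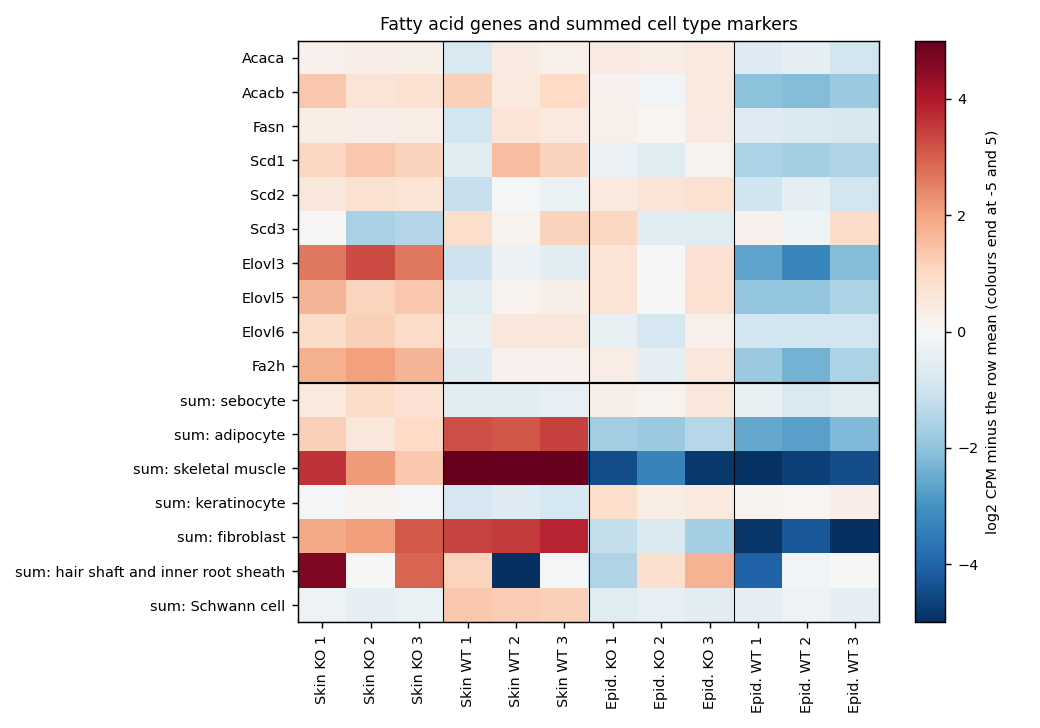
Log2 CPM minus the row mean for the 10 genes (above the line) and for the summed CPM of each cell type marker list (below it) in the 12 libraries, from Skin KO at the left to Epidermis WT at the right. Colours end at -5 and 5. Elovl3, Elovl5 and Fa2h are highest in Skin KO, where adipocyte and muscle markers are below their Skin WT levels.

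The remaining marker lists were as follows, again beside 22.2% higher and 23.3% lower over all genes in skin and 26.2% and 25.3% in epidermis. Skeletal muscle markers were lower in Skin KO for 9 of 9 genes, at 763 to 3690 CPM against 10644 to 79021 CPM in Skin WT, and summed to 10.8 to 29.8 CPM in Epidermis KO and 9.99 to 13.9 CPM in Epidermis WT. Schwann cell markers, with Mbp and Pmp22 among the most abundant, were lower for 5 of 6 genes in Skin KO (84.0 to 99.2 CPM, against 271 to 299.8 CPM in Skin WT), and in epidermis 2 of 5 were higher and 1 lower, with none higher by DESeq2. Hair shaft and inner root sheath markers, led by Krt71, Tchh and Krt25, spread widely, at 6446, 263 and 1945 CPM in Skin KO and 564, 5.75 and 244 CPM in Skin WT, with 3 of 10 genes higher in skin and none of 9 called in epidermis (1 higher at an unadjusted p under 0.05 and 1 by DESeq2). Keratinocyte markers had 3 of 8 genes higher in Skin KO, and 2 higher and 2 lower in Epidermis KO. Without Skin WT 1 the keratinocyte marker Trp63 was also called lower in skin (-0.46, adjusted p = 0.018).

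Genes around the 10 enzymes were read from pathway lists, of which up to 4 genes with the smallest adjusted p in each preparation are named unless stated. Each list count, here and below, stands beside 22.2% of all genes called higher and 23.3% lower in skin. In epidermis these shares were 26.2% and 25.3%. Whether the list counts differ from the shares was not tested. Of 8 genes that supply acetyl-CoA and NADPH, 4 were higher in Skin KO and 7 in Epidermis KO, and none was lower in either by edgeR or DESeq2 (none in skin and 1 in epidermis at an unadjusted p under 0.05). G6pdx and Pgd, which yield NADPH in the pentose phosphate pathway, had log2 fold changes of 1.29 (adjusted p = 0.00369) and 1.24 (0.000635) in skin. Slc25a1, the citrate carrier, followed at 0.92 and Acly, which cleaves citrate to acetyl-CoA, at 0.60. In epidermis G6pdx (1.31, adjusted p = 5.22e-05), Acss2, which activates acetate (1.12), Acly (0.73) and Idh1, another source of NADPH (0.62), led the list. The median log2 fold change of the list was 0.61 in skin and 0.67 in epidermis. Without Skin WT 1, Acss2 was also called higher in skin (0.34, adjusted p = 0.0386), which made 5 of the 8.

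Of 9 elongases and desaturases outside the 10 that were tested, 5 were higher and 1 lower in each preparation. Elovl4, which makes the ultra-long chains of barrier ceramides, was 2.77-fold higher in Skin KO, at 1550.1, 1713 and 1508 CPM against 442, 738 and 661 CPM in Skin WT (adjusted p = 0.00208). Elovl7 was 4.98-fold higher in Skin KO (adjusted p = 9.93e-05) and 2.78-fold higher in Epidermis KO (8.98e-05). The dihydroceramide desaturase Degs1 rose 3.42-fold in skin (adjusted p = 0.000222) and 3.38-fold in epidermis (6.21e-05). Degs2, its relative that also makes phytoceramide, had 20.03, 21.3 and 11.9 CPM in Skin KO and 1.68, 0.314 and 1.34 CPM in Skin WT (adjusted p = 0.00133), and 6.65, 5.26 and 5.16 CPM in Epidermis KO against 0.884, 0.69 and 0.778 CPM in Epidermis WT (adjusted p = 9.97e-05). Fads6 was 6.59-fold higher in Epidermis KO (adjusted p = 8.19e-05), at 6.86 to 8.06 CPM against a low 0.897 to 1.24 CPM in Epidermis WT. The gene called lower was Fads1, which desaturates polyunsaturated chains, in skin (log2 fold change -0.91, adjusted p = 0.031) and Elovl1 in epidermis (-0.80, adjusted p = 0.00124), both named after their values were seen. Elovl1 was called lower in skin as well without Skin WT 1 (-0.46, adjusted p = 0.0419).

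Elongation needs a reductase, a dehydratase and a further reductase after the ELOVL step, and desaturation needs cytochrome b5. Of 9 genes for these, 4 were higher and 2 lower in skin and 5 higher and 2 lower in epidermis. The dehydratases Hacd3 (log2 fold change 1.28) and Hacd2 (1.52) and the ketoacyl-CoA reductase Hsd17b12 (1.44) rose in skin. In epidermis Hacd4 (2.59), Hacd3 (0.98) and Cyb5b, the mitochondrial form of cytochrome b5 (0.67), rose. Hacd4 was at low levels, 2.83 to 4.47 CPM in Epidermis KO and 0.519 to 0.828 CPM in Epidermis WT. In skin Hacd4 was not called (-0.49, adjusted p = 0.271). Cyb5a, the form of the endoplasmic reticulum, was not called in skin (0.32, adjusted p = 0.0718). It overlapped in epidermis, at 194 to 251 CPM in KO and 185 to 222 CPM in WT, and was named after its values were seen. Cyb5r3, the reductase of cytochrome b5, fell by 0.69 on the log2 scale in skin and by 1.62 in epidermis. The others called lower were Hacd1 in skin (-2.22, and -1.18 with adjusted p = 0.0226 without Skin WT 1, where it had 30.5 CPM, against 5.39 and 9.24 CPM in Skin WT 2 and 3) and Tecr, the last enzyme of the elongation cycle, in epidermis (-0.43), both named after their values were seen.

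Of the acyl-CoA synthetases 1 of 10 was higher and 5 lower in skin, and 3 of 8 were higher and 4 lower in epidermis. Slc27a4, a fatty acid transporter and synthetase of the epidermis, rose in skin (log2 fold change 1.74) and in epidermis (0.91). Slc27a2 was called lower in skin, at 0.071, 0 and 0.0635 CPM in Skin KO and 0.841, 1.10 and 0.669 CPM in Skin WT, levels too close to 0 for a fold. In skin Slc27a1 (-1.30) and Acsl1 (-0.73) also fell, and in epidermis Acsbg1 (-1.11) and Slc27a3 (-0.69) fell while Acsl4 (0.57) rose. Acsbg1 is also on the sebocyte list.

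Among 14 lipogenic regulators 4 were higher and 3 lower in skin, and of 12 tested in epidermis 4 were higher and 1 lower. Over all genes tested 22.2% were higher and 23.3% lower in skin, and 26.2% and 25.3% in epidermis. Thrsp, a lipogenic protein of liver and fat (-2.37), and Nr1h3, which encodes the liver X receptor alpha (-1.28), fell in skin, as did Mlxipl, the carbohydrate response factor (-3.43), named after its value was seen. Mid1ip1, which promotes the assembly of acetyl-CoA carboxylase (0.91), and Mlx, the partner of Mlxipl (0.84), rose there. Without Skin WT 1, Mbtps1 was also called lower in skin (-0.32, adjusted p = 0.0201), which made 4 lower. It was named after its value was seen. In epidermis Srebf2, the sterol-responsive transcription factor (0.84), the protease gene Mbtps2 (0.76), Mlx (0.44) and Scap (0.43) rose, and the gene called lower was Nr1h2 (-0.28), named after its value was seen, while DESeq2 called none of the list lower there. Srebf1, the factor best known for lipogenic genes, was picked out after its values were seen, and had 118, 111 and 112 CPM in Skin KO, 112, 125 and 125 CPM in Skin WT, 144, 138 and 160.3 CPM in Epidermis KO and 142, 141 and 133 CPM in Epidermis WT. Its log2 fold change was 0.0043 (SE 0.10, adjusted p = 0.977) in skin and 0.10 (SE 0.11, adjusted p = 0.472) in epidermis. Without Skin WT 1 the skin value was -0.055 (adjusted p = 0.599).

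Of 15 genes of fatty acid oxidation 1 was higher and 2 lower in skin, and 7 were higher and 1 lower in epidermis. Mlycd, which removes malonyl-CoA, fell in skin (-2.60) and in epidermis (-1.21), and Cpt1b, the muscle form of carnitine palmitoyltransferase 1, fell in skin (-3.76). The skin falls were larger through Skin WT 1, the library rich in muscle markers, where Mlycd had 89.2 CPM, against 22.5 and 30.6 CPM in Skin WT 2 and 3, and Cpt1b had 171 CPM, against 21.5 and 57.1 CPM there. Without it Mlycd was at -1.77 (adjusted p = 0.00203) and Cpt1b at -2.68 (adjusted p = 0.0265), and 4 genes of the list were higher, among them Acadl (0.44), Hadh (0.32) and Etfdh (0.54), named after their values were seen. Acadl (0.98) and Acadm (0.57), dehydrogenases of mitochondrial oxidation, rose in epidermis. Of the 7 genes of mitochondrial fatty acid synthesis, Mecr was higher in skin (0.77) and none lower (2 at an unadjusted p under 0.05, none by DESeq2). In epidermis H2-Ke6 (-0.92), Cbr4 (-0.60) and Mcat (-0.45) were lower and none was higher (none at an unadjusted p under 0.05 and none by DESeq2). The median log2 fold change of this list was -0.20 in skin, or 0.093 without Skin WT 1, and -0.11 in epidermis, beside 0.56 and 1.41 for the 10 genes.

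**Figure D5:**
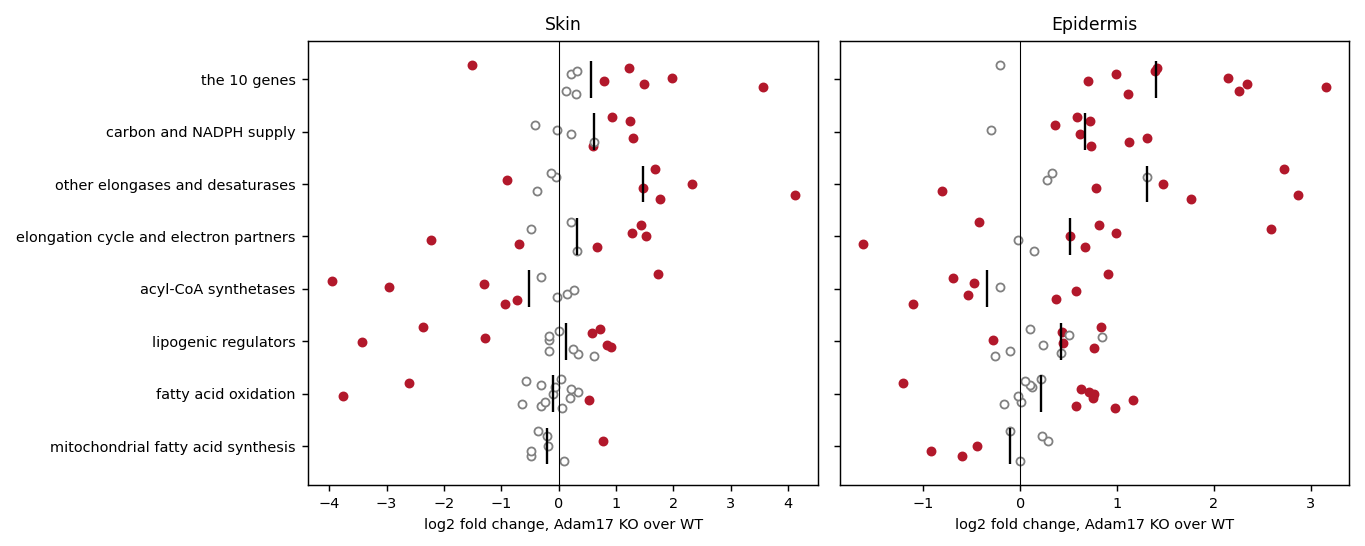
Log2 fold change of KO over WT for each tested gene of the 10 and of 7 lists around them, in skin (left) and epidermis (right), each with its own horizontal scale. Filled points passed the adjusted p threshold of 0.05, and black bars are medians. The 10 genes have medians of 0.56 in skin and 1.41 in epidermis, and mitochondrial fatty acid synthesis has -0.20 and -0.11.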

How the data were processed

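RNA from 12 libraries was measured after TruSeq stranded mRNA preparation from total RNA, per the labels' protocols. Reads were base called with bcl2fastq 2.17, aligned with STAR 2.5.1 to mm10 and counted with RSEM, per the submitters' processing notes. For the annotation release and the strand setting, the sources used here give nothing. The authors deposited expected counts, estimated by RSEM per gene, which were rounded to whole numbers, and TPM, both per the file headers. Between 8.42% and 9.98% of expected counts were not whole. RSEM shares reads between similar genes by probability, so values of near-identical genes depend on that model. The deposited effective lengths, another column of the authors' tables, served as offsets in 1 alternative.

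Gene IDs were matched to GENCODE mouse release M21 (GRCm38), 47224 of 47643 without their version. Hsd17b8 is listed there as H2-Ke6. Groups and replicate numbers come from the titles. Knockout was compared with wild type within each preparation (6 libraries), epidermis with skin within each genotype, and the genotype effects with each other in 1 fit of 12 libraries, with edgeR 4.0.16 (R 4.3.3), TMM scaling, its expression filter, quasi-likelihood tests and Benjamini-Hochberg adjustment over all genes. Standard errors were taken as the absolute log2 fold change over the root of the F statistic. The procedure was tested on simulated data. Alternatives were DESeq2 1.42.0, RLE scaling, no filter, length offsets, 1 fit of 12 libraries, a replicate block, each library left out, the share of Y-linked reads as a covariate, knockout skin libraries with such reads left out, and a minimum of 1.5-fold. A fit of the list genes in skin without Skin WT 1 was added after seeing the data.

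The 10 genes, the 7 pathway lists and the 7 marker lists were chosen with earlier results of these data known. Named were the 10 genes, Adam17, up to 4 genes per pathway list and preparation with the smallest adjusted p past 0.05, up to 3 of the most abundant markers per list, and the 3 genes nearest in pattern to each of the 10 among genes with at least 1 CPM. A few genes that this rule names are not reported here. Libraries of the same number deviated together from their group means in skin (correlations across genes of 0.339, 0.359 and 0.206), so the numbers may pair the skin libraries, a reading that rests on the data, since no label states it. All printed values come from the fits without the block unless the block is named. In epidermis the correlations were 0.0745, 0.140 and -0.0550, and no pairing was read. Between epidermis and skin libraries of the same number they were -0.0916, 0.0303 and -0.244 in WT and -0.0591, 0.00975 and -0.0443 in KO. Xist had 0 reads in both Skin KO 1 and Epidermis KO 1, while Y-linked reads were 0 in Skin KO 2 and 213 in Epidermis KO 2. No label states whether both preparations came from the same mice, and the fits without the block take them as independent. Libraries of 1 group differed by more than sampling noise. Promoter sequences are from RefSeq (GRCm38.p6), for 6 of the 10 genes.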

Additional observations from a re-analysis of the deposited data

Results flagged for a closer look

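Acacb was the gene among the 10 whose genotype effect differed between the preparations by a test of the difference itself, by 2.20 on the log2 scale (epidermis minus skin, SE 0.33, adjusted p = 0.00229, edgeR over the 12 libraries). In Epidermis KO all 3 libraries (47.4 to 73.5 CPM) lay above all 3 of Epidermis WT (11.5 to 14.4 CPM), while Skin KO (83.6 to 131 CPM) and Skin WT (72.4 to 119 CPM) overlapped. Over 19 alternatives the difference lay between 2.002 and 2.43, and its highest adjusted p was 0.00853. Adipocyte markers were lower in Skin KO (570 to 879 CPM, against 3329 to 4134 CPM in Skin WT). Their sum was higher in Epidermis KO (107 to 144 CPM, against 59.1 to 82.7 CPM in Epidermis WT). That epidermis difference was mostly Lpl (39.3 to 78.8 CPM, against 5.17 to 11.7 CPM), and only 6 of the 12 markers were tested there. Skeletal muscle markers were lower in Skin KO too (763 to 3690 CPM, against 10644 to 79021 CPM in Skin WT). The part of both marker lists in the Acacb difference was not tested.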

How the results depend on the processing

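Over all alternatives, 129 of 150 values of the 10 genes in skin, 126 of 140 in epidermis, 179 of 190 for the difference between preparations, 121 of 130 between the WT groups and 126 of 140 between the KO groups kept their direction and their side of the threshold. In skin the genes called higher numbered 2 when the KO libraries with Y-linked reads were left out (Scd2, Elovl5 and Elovl6 were lost, with 1 KO library left that is assumed to vary like the WT libraries), and those called lower numbered 0 with the 1.5-fold minimum and 0 to 1 with a library left out. In epidermis 1 gene, Scd3, was called lower with the Y-linked covariate, and 0 to 1 with a library left out. For the difference between preparations 2 were called higher with DESeq2 (Acaca joined, 0.87, adjusted p = 0.0499) and 1 to 5 with a library left out. Between the KO groups Scd3 was called higher with the replicate block (0.94, adjusted p = 0.0139; 1 gene) and with the Y-linked covariate (1.11; 1 gene), and 3 were called lower with the 1.5-fold minimum. Fasn there was called lower with length offsets (-0.42, adjusted p = 0.0455). By CPM per kilobase 2 genes stood at another rank than by TPM in Skin WT and 2 in Epidermis KO.

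Direction reversed for values that had not passed the test. Acacb in skin was -0.21 with the Y-linked covariate, -0.12 without the KO libraries with Y-linked reads, and ran from -0.082 to 0.29 with a library left out. In skin Fasn ran from -0.14 to 0.51 and Scd1 from -0.11 to 0.75, and in epidermis Scd3 ran from -0.97 to 0.14. Elovl6 for the difference between preparations was 0.035 with length offsets and ran from -0.39 to 0.25, and Scd2 between the KO groups ran from -0.10 to 0.035. The cause of these changes was not tested.

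Among list genes called in skin, Dsg4 of the hair shaft list lost its call without Skin WT 1 (adjusted p = 0.0619) and the others kept theirs, a fit chosen after seeing the data. Replicate pairing, as a block, left the counts of the 10 genes at 5 higher and 1 lower in skin and 9 higher in epidermis, and changed no other call than that of Scd3 between the KO groups, where all-gene calls were 2805 in place of 4227. All-gene calls moved by more than 1.5 times with the 1.5-fold minimum (3576 of 6780 in skin, 3128 of 7014 in epidermis, 973 of 2539 for the difference, 3235 of 6258 between WT groups and 1057 of 4227 between KO groups), without the KO libraries with Y-linked reads (2658 in skin), with the Y-linked covariate (4540 in epidermis), and with a library left out for the difference (1393 to 3940) and, without Skin KO 3, between KO groups (2328). At these depths 3 counts are 0.179 to 0.246 CPM in a library, well below the levels of the 10 genes, so depth did not limit them.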
